A study of Mus musculus with 12 samples.

Results

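The genes described here encode the eukaryotic translation initiation factors (eIFs), the proteins that bring a ribosome to the start codon of an mRNA. They were chosen by a rule on names, with earlier results of these data known. The rule takes every listed gene whose mouse symbol starts with Eif1, Eif2, Eif3, Eif4, Eif5 or Eif6. It leaves out the kinases Eif2ak1 to Eif2ak4, which phosphorylate eIF2 and are no initiation factors themselves. This gave 49 genes of the 9621 listed. Of these, 5 belong with eIF1 and eIF1A, 4 with eIF2, 5 with its exchange factor eIF2B and 14 with eIF3. A further 12 belong with the eIF4 group (cap binding, scaffold and helicase) and 4 with eIF5, eIF5A, eIF5B and eIF6. The other 5 are the proteins that bind eIF4E (Eif4ebp1, Eif4ebp2 and Eif4enif1) and Eif2a and Eif2d, which act outside the main route of initiator tRNA delivery.

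As background, eIF4E holds the cap of an mRNA and is joined by the scaffold eIF4G and the RNA helicase eIF4A. The large complex eIF3 links this assembly to the small ribosomal subunit, on which eIF1 and eIF1A guard the choice of start codon while eIF2 delivers the initiator tRNA. eIF2B recharges eIF2 with GTP, eIF5 triggers GTP hydrolysis, eIF5B joins the large subunit and eIF6 keeps free large subunits apart from small ones. In macrophages this machinery is a target of signalling from bacterial products, through the eIF4E-binding proteins and through phosphorylation of eIF2.

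The cells were RAW264, a mouse macrophage line. They were harvested after LPS (lipopolysaccharide from bacteria, 100 ng/ml) together with DEX (dexamethasone, a glucocorticoid, 10 uM) for 30 min, after LPS alone (100 ng/ml, 30 min), or without either (basal). All 3 groups were treated with cycloheximide (100 µg/ml), which holds ribosomes on mRNA. For each group, mRNA and the RNA fragments that ribosomes shield from nuclease (RPF, here called footprints) were sequenced with 2 biological replicates, which gives 12 libraries in 6 groups.

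Values are CPM, the reads of a gene scaled to the total reads of its library and not to gene length. Changes were tested with limma on log2(CPM + 1) and called at a Benjamini-Hochberg adjusted p under 0.05 over all genes tested, two-sided. A change is given as log2 ± SE, as LPS + DEX or LPS over basal or as LPS + DEX over LPS. Translational efficiency (TE) is footprints over mRNA of the same gene. All 49 genes passed the filter on low values in the mRNA and TE tests, and 48 passed it in footprints, where Eif4e1b had 0 to 3.62 CPM.

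Footprint libraries held 821946 to 1833560 reads, with both LPS libraries at the low end (821946 and 829415), and mRNA libraries held 1475120 to 2529667. In footprints the treatment check Tnf, an inflammatory cytokine induced by LPS, was higher with LPS than in basal cells by 4.55 ± 0.13 (log2 ± SE). Dusp1, a phosphatase induced by glucocorticoids, was higher with LPS + DEX than with LPS by 3.59 ± 0.23. It was also higher with LPS than in basal cells, by 1.34 ± 0.23. Per1, the other check for DEX, measured 0.51 ± 0.26 for LPS + DEX against LPS and did not pass (limma, adjusted p = 0.288). All 10 macrophage markers examined were listed and summed to 4305 to 7013 CPM over the libraries. mRNA basal replicate 1 stood apart: its rank correlation with the other mRNA libraries was 0.781 to 0.831 (Spearman, across genes), against 0.894 to 0.98 among the others. Of 16 marker genes of other cell types, 4 were listed (Krt7, Ddr1, Ren1 and Col3a1). They summed to 64.7 to 82.2 CPM in LPS + DEX mRNA, 51.4 to 59.7 CPM in LPS mRNA, and 18.4 and 2437 CPM in basal mRNA, the highest value being basal replicate 1. In basal replicate 1 Krt7, Ddr1 and Ren1 had 1108, 923 and 402 CPM. Col3a1 went the other way, with 3.39 CPM there, 16.2 CPM in basal replicate 2 and 46.7 to 75.1 CPM in treated mRNA. Calls of initiation factors in mRNA and TE that do not hold without mRNA basal replicate 1 are named with their value.

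The initiation factors together took 1.52% and 1.58% of footprint reads with LPS + DEX, 1.70% and 1.71% with LPS and 1.58% and 1.60% in basal cells. They took 1.35% and 1.37% of mRNA reads with LPS + DEX, 1.32% and 1.34% with LPS and 1.18% and 1.26% in basal cells. Both LPS footprint libraries thus lay above the other 4 footprint libraries, and all treated mRNA libraries lay above both basal ones. The mRNA order was not particular to the factors. The macrophage markers took 0.507% to 0.535% of treated mRNA reads and 0.431% and 0.467% of basal ones. The median mRNA change of all genes was also above 0, at 0.26 (log2) for LPS and 0.28 for LPS + DEX.

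The first comparison asks which factors were more or less occupied by ribosomes after LPS. Of 48 factors tested in footprints, 7 rose with LPS, against 3.3% of all 8847 genes called higher, and 3 fell, against 4.32% called lower. The median change of the factors was 0.05 and that of all genes was -0.07 (log2). The factors that rose were the eIF3 genes Eif3a, Eif3j1 and Eif3j2, the eIF2 beta subunit Eif2s2 and the eIF1A gene Eif1ax. The others were the subunit-joining GTPase Eif5b and Eif5a, whose product carries hypusine and also serves elongation. Those that fell were the eIF3 subunits Eif3m and Eif3i and the anti-association factor Eif6. In bulk cultures a change in every cell and a change in the share of responding cells cannot be told apart.

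Within eIF3, 3 of 14 genes rose and 2 fell with LPS, against 3.3% and 4.32% of all genes. Of those that rose, Eif3j1 and Eif3j2 encode the same subunit and may share reads, so they do not count as independent. Eif3a (ENSMUSG00000024991), the large scaffold subunit, had 969 and 996 CPM of footprints with LPS, against 707 and 590 CPM in basal cells, a change of 0.60 ± 0.09 (adjusted p = 0.0013). Eif3m (ENSMUSG00000027170), a subunit of the same octameric core, had 194 and 179 CPM with LPS, against 295 and 298 CPM in basal cells, a change of -0.67 ± 0.10 (adjusted p = 0.00108). These 2 core subunits moved in opposite directions, and in neither did the LPS and basal libraries overlap. Where libraries of called genes are said not to overlap, this describes the printed values. It is no further support, since the call rests on the same values, and the share of all genes without overlap was not counted. Eif3i, a WD-repeat subunit, had 414 and 410 CPM with LPS, against 506 and 561 CPM in basal cells, a change of -0.37 ± 0.10 (adjusted p = 0.0353). The other 9 genes did not pass, with changes between -0.24 (Eif3g) and 0.31 (Eif3e).

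Eif3j encodes the loosely bound subunit that sits near the mRNA entry channel, and the mouse has 2 near-identical genes for it. Eif3j2 had 109 and 127 CPM of footprints with LPS, against 67.9 and 62.5 CPM in basal cells, a change of 0.84 ± 0.15 (adjusted p = 0.00331). Eif3j1 had 96.5 and 93.7 CPM with LPS, against 54.9 and 64.4 CPM in basal cells, a change of 0.67 ± 0.15 (adjusted p = 0.0155). Reads may be shared between the copies, so their values are not independent, and the split between them is uncertain. The same holds for Eif1a and Eif1ax, Eif2s3x and Eif2s3y, Eif1 and Eif1b, Eif4a1 and Eif4a2, and for Eif5a, which has pseudogenes.

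Among the factors that act with the initiator tRNA, Eif2s2 (ENSMUSG00000074656) had 524 and 534 CPM of footprints with LPS, against 361 and 380 CPM in basal cells, a change of 0.51 ± 0.10 (adjusted p = 0.00547). It was the only 1 of the 4 eIF2 genes to pass. Eif2s1, the alpha subunit that stress kinases phosphorylate, had 360 and 347 CPM with LPS, against 360 and 312 CPM in basal cells (0.08 ± 0.11, adjusted p = 0.727). Eif2s3x and Eif2s3y, the gamma subunit genes, measured 0.05 ± 0.10 and 0.09 ± 0.18. None of the 5 eIF2B subunits passed, the nearest being Eif2b2 at -0.56 ± 0.17 (adjusted p = 0.0624).

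Of the later-acting factors, Eif5b had 298 and 285 CPM of footprints with LPS, against 214 and 199 CPM in basal cells, a change of 0.49 ± 0.10 (adjusted p = 0.00932). Eif5a had 1853 and 1936 CPM with LPS, against 1531 and 1584 CPM in basal cells, a change of 0.28 ± 0.08 (adjusted p = 0.0473). Eif6 (ENSMUSG00000027613) went the other way, with 153 and 150 CPM with LPS, against 215 and 198 CPM in basal cells, a change of -0.44 ± 0.11 (adjusted p = 0.026). Eif5, the GTPase activator of eIF2, measured -0.12 ± 0.13 and did not pass. Eif1ax had 204 and 178 CPM with LPS, against 144 and 125 CPM in basal cells, a change of 0.50 ± 0.13 (adjusted p = 0.0346). In none of these 4 called genes did the groups overlap, which describes the same values and is no further test.

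None of the 11 eIF4 genes tested and none of the 3 eIF4E-binding proteins passed in footprints for LPS against basal. Eif4g1, the main scaffold, had 890 and 843 CPM with LPS, against 945 and 879 CPM in basal cells (-0.07 ± 0.08). Eif4e, the cap-binding protein, had 287 and 259 CPM with LPS, against 239 and 204 CPM in basal cells (0.30 ± 0.12, adjusted p = 0.138). Eif4ebp1, which blocks eIF4E when not phosphorylated by mTOR, had 25.3 and 19.5 CPM with LPS, against 23.7 and 30.3 CPM in basal cells (-0.26 ± 0.27). The libraries overlapped for Eif4g1 and Eif4ebp1.

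Of these 10 footprint calls, Eif3a, Eif3m, Eif3j2 and Eif2s2 held when any 1 of the 6 footprint libraries was left out. Eif5b was lost without LPS replicate 1 (0.46, adjusted p = 0.0697). The other 5 were each lost in 4 or 5 of the 6 fits, among them both fits without an LPS library, at changes of 0.55 to 0.69 for Eif3j1, 0.40 to 0.60 for Eif1ax, 0.25 to 0.31 for Eif5a, -0.30 to -0.38 for Eif3i and -0.38 to -0.46 for Eif6. With median-of-ratios scaling Eif6 (-0.38, adjusted p = 0.0517) and Eif3i (-0.31, adjusted p = 0.0721) no longer passed.

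**Figure D1:**
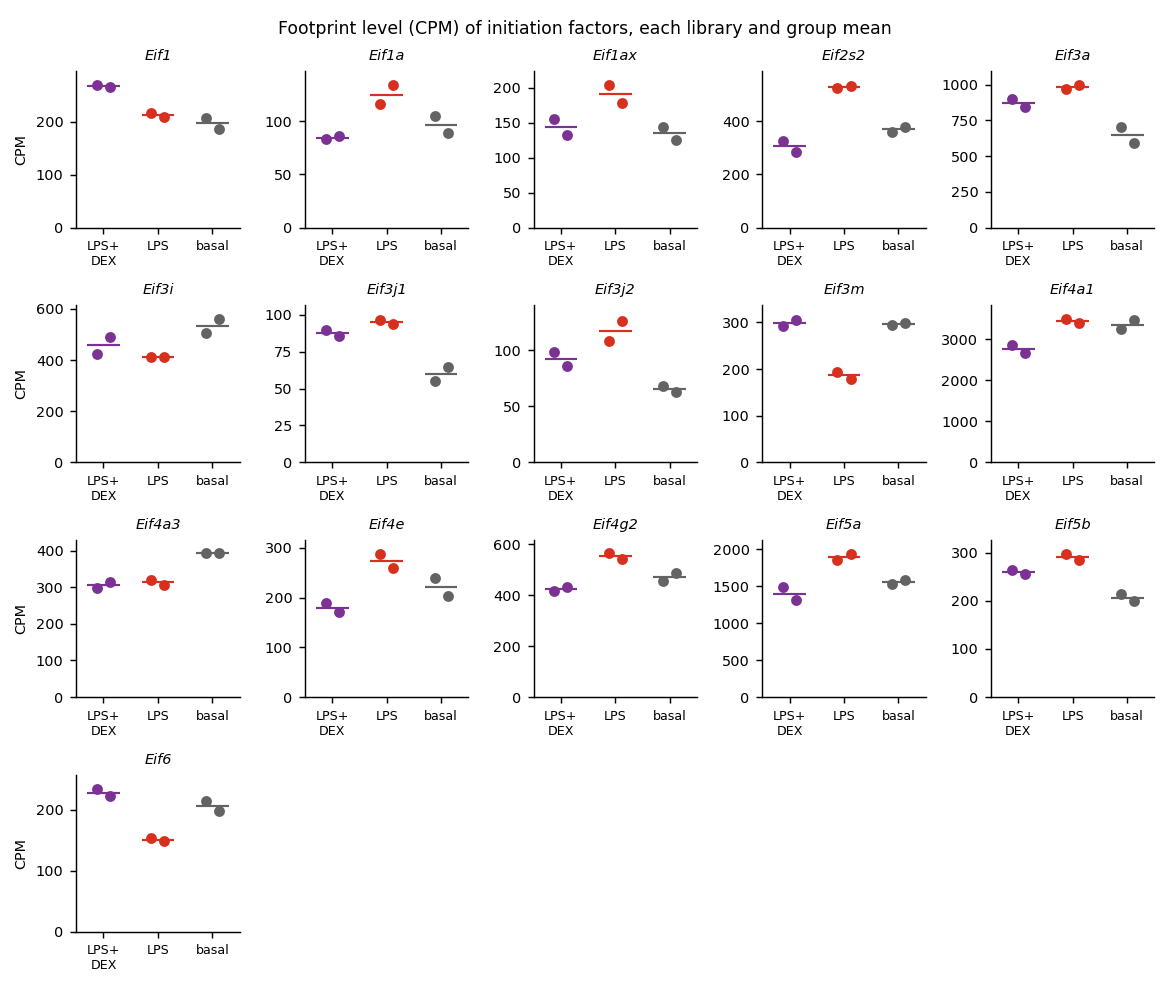
Footprint level in CPM (vertical axis, from 0) of the 16 initiation factors called in at least 1 footprint comparison, for LPS + DEX, LPS and basal cells. Points are libraries and lines are group means (n = 2). For Eif2s2 both LPS points (524 and 534 CPM) lie above the other 4, and for Eif3m both LPS points (194 and 179 CPM) lie below the other 4.

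Adding DEX to LPS asks whether the glucocorticoid alters these footprints within the same 30 min. Of 48 factors, 2 were higher with LPS + DEX than with LPS, against 3.14% of all genes, and 6 were lower, against 3.55%. The median change was -0.03 for the factors and 0.02 for all genes. The 2 that rose were Eif3m and Eif6. The 6 that fell were Eif2s2, Eif1a, Eif5a and 3 genes of the eIF4 group, Eif4e, Eif4a1 and Eif4g2.

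Eif2s2 had 327 and 286 CPM of footprints with LPS + DEX, against 524 and 534 CPM with LPS, a change of -0.79 ± 0.10 (adjusted p = 0.000221). Against basal cells (361 and 380 CPM) the Eif2s2 change with LPS + DEX did not pass (-0.28 ± 0.10, adjusted p = 0.143). Eif5a had 1487 and 1309 CPM with LPS + DEX, against 1853 and 1936 CPM with LPS, a change of -0.44 ± 0.08 (adjusted p = 0.00449). Eif1a, the second eIF1A gene, had 82.9 and 85.6 CPM with LPS + DEX, against 116 and 134 CPM with LPS, a change of -0.56 ± 0.14 (adjusted p = 0.0317). For all 3 genes both LPS + DEX libraries lay below both LPS libraries.

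The cap-binding protein gene Eif4e (ENSMUSG00000028156) had 189 and 170 CPM of footprints with LPS + DEX, against 287 and 259 CPM with LPS, a change of -0.60 ± 0.12 (adjusted p = 0.00736). The helicase gene Eif4a1 had 2867 and 2661 CPM with LPS + DEX, against 3505 and 3410 CPM with LPS, a change of -0.32 ± 0.07 (adjusted p = 0.0147). Eif4g2 encodes a relative of eIF4G that lacks the eIF4E-binding part and is also called DAP5. It had 414 and 431 CPM with LPS + DEX, against 563 and 543 CPM with LPS, a change of -0.39 ± 0.09 (adjusted p = 0.0178). The scaffold Eif4g1 did not share this difference, with 872 and 860 CPM with LPS + DEX against 890 and 843 CPM with LPS. Eif4b and Eif4h, which stimulate the helicase, measured 0.05 ± 0.09 and -0.04 ± 0.10.

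Eif3m had 293 and 305 CPM of footprints with LPS + DEX, against 194 and 179 CPM with LPS, a change of 0.68 ± 0.10 (adjusted p = 0.00106). Eif6 had 235 and 223 CPM with LPS + DEX, against 153 and 150 CPM with LPS, a change of 0.59 ± 0.11 (adjusted p = 0.00518). Both genes had been lower with LPS than in basal cells. The LPS + DEX libraries lay just outside the basal range on either side for Eif3m and above both basal libraries for Eif6. Against basal, LPS + DEX measured 0.01 ± 0.10 for Eif3m and 0.15 ± 0.11 for Eif6. Neither passed, and the share of all genes without overlap was not counted. The comparisons LPS against basal and LPS + DEX against LPS share the 2 LPS libraries, so a deviation in those libraries enters both with opposite sign. Both LPS footprint libraries were also the shallowest, and the part of depth in these results was not tested. The 4 listed marker genes of other cell types summed to 153 to 161 CPM of footprints with LPS + DEX, 115 to 137 CPM with LPS and 140 to 176 CPM in basal cells. Of these, Col3a1, a fibroblast collagen, had 134 and 128 CPM with LPS + DEX, 65.1 and 60.8 CPM with LPS and 142 and 115 CPM in basal cells. It was lowest in the LPS libraries, as Eif3m and Eif6 were. Ddr1 went the other way, with 16.9 and 33.3 CPM with LPS + DEX, 45.8 and 73 CPM with LPS and 32.8 and 22.4 CPM in basal cells. Krt7 and Ren1 had at most 2.43 CPM in any footprint library. The part of other cell types in these results was not tested.

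All 8 calls of LPS + DEX against LPS held with the other pseudocount, without the filter, with median-of-ratios scaling, with limma-voom, with the replicate number as a block and with only the compared groups in the fit. Of the 8, Eif2s2 alone held without any 1 library (-0.69 to -0.88). Eif3m was lost without LPS + DEX replicate 2 (0.65, adjusted p = 0.0541), and Eif6 without LPS + DEX replicate 1 (0.55, adjusted p = 0.0975) or 2 (0.63, adjusted p = 0.0875). Eif5a was lost without LPS + DEX replicate 2 (-0.35) or LPS replicate 2 (-0.41), and Eif4e without LPS + DEX replicate 1 (-0.68) or 2 (-0.52) or LPS replicate 1 (-0.53). Eif1a (-0.45 to -0.66), Eif4a1 (-0.27 to -0.38) and Eif4g2 (-0.36 to -0.42) were lost without any 1 of the 4 libraries compared.

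**Figure D2:**
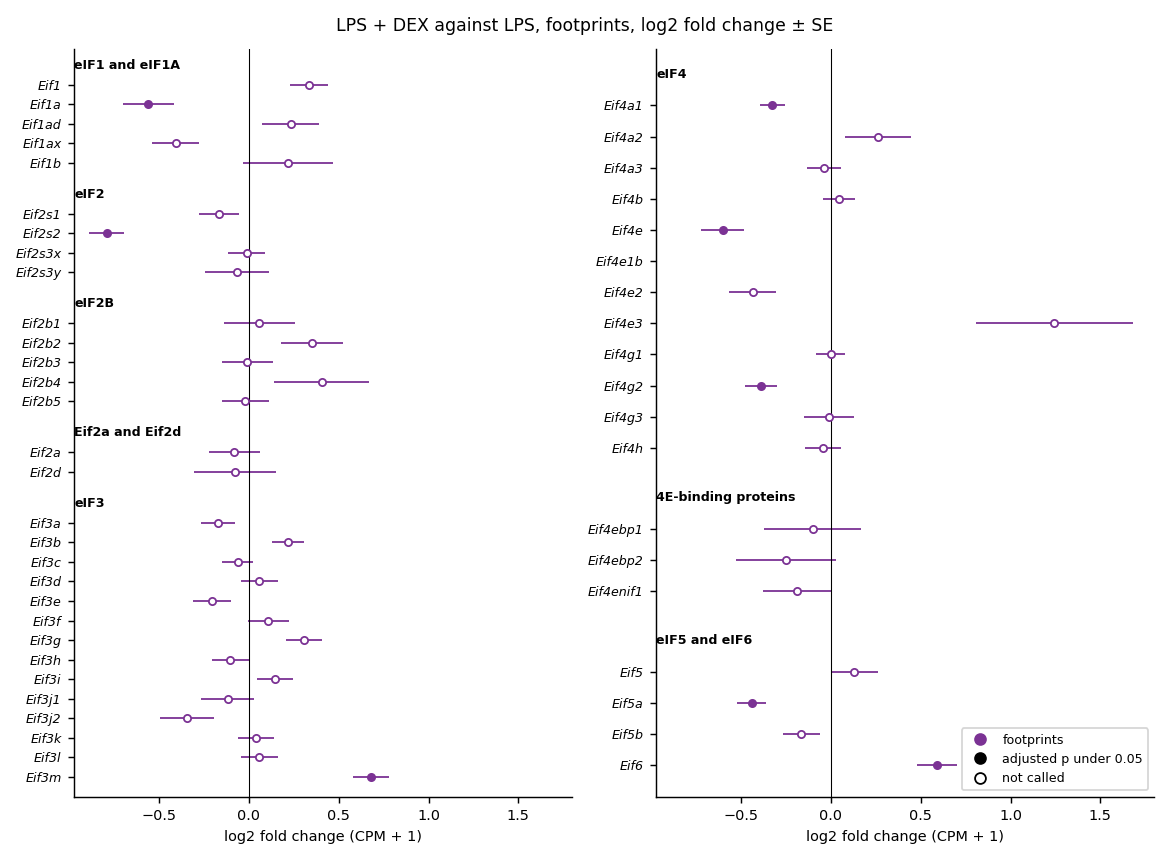
Change in footprints of LPS + DEX against LPS (log2 fold change of CPM + 1, horizontal axis, ± SE) for the 48 initiation factors tested, grouped by complex. Filled points passed at an adjusted p under 0.05: Eif3m and Eif6 lie to the right of 0, and Eif2s2, Eif4e, Eif1a, Eif5a, Eif4g2 and Eif4a1 lie to the left.

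Set directly against basal cells, footprints with LPS + DEX were higher for 2 of 48 factors, against 1.77% of all genes, and lower for 2, against 2.86%. Eif1, the start codon fidelity factor, had 270 and 266 CPM with LPS + DEX, against 208 and 186 CPM in basal cells, a change of 0.45 ± 0.11 (adjusted p = 0.0275). Eif3a had 902 and 846 CPM with LPS + DEX, against 707 and 590 CPM in basal cells, a change of 0.43 ± 0.09 (adjusted p = 0.0158). The 2 helicase genes that fell were Eif4a1 (-0.28 ± 0.07, adjusted p = 0.0419) and Eif4a3, which works in the exon junction complex (-0.36 ± 0.09, adjusted p = 0.0465). Eif4a3 had 298 and 314 CPM with LPS + DEX, against 392 and 393 CPM in basal cells. With median-of-ratios scaling Eif4a1 and Eif4a3 no longer passed (adjusted p = 0.11 and 0.0851), while Eif3f and Eif3j1 did. All 4 calls were lost without LPS + DEX replicate 1 or 2: the changes were then 0.44 and 0.46 for Eif1, 0.39 and 0.48 for Eif3a, -0.33 and -0.22 for Eif4a1 and -0.32 and -0.40 for Eif4a3.

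At the mRNA level the picture centred on other members. Of 49 factors, 6 had more mRNA with LPS than in basal cells, against 9.03% of all 9277 genes, and 1 had less, against 1.68%. With LPS + DEX against basal, 10 had more, against 18.5%, and 3 had less, against 4.23%. The factors' median change was -0.01 for LPS and 0.09 for LPS + DEX, while that of all genes was 0.26 and 0.28. These medians depend on scaling: median-of-ratios scaling lowered the median change of all genes by 0.26 for LPS and by 0.28 for LPS + DEX. It then left 2 factors with more and 1 with less mRNA for LPS, and 2 with more and 11 with less for LPS + DEX.

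Eif4g1 (ENSMUSG00000045983) had 995 and 884 CPM of mRNA with LPS + DEX and 784 and 822 CPM with LPS, against 428 and 480 CPM in basal cells. The change was 1.05 ± 0.12 with LPS + DEX (adjusted p = 0.0058) and 0.82 ± 0.12 with LPS (adjusted p = 0.0205), and under median-of-ratios scaling it was 0.75 and 0.56 and still passed. Every treated library lay above both basal ones. Eif4ebp2, an eIF4E-binding protein, had 24.5 and 25.3 CPM with LPS + DEX and 25.4 and 32.9 CPM with LPS, against 10.8 and 10.8 CPM in basal cells, changes of 1.13 ± 0.26 and 1.34 ± 0.26 (adjusted p = 0.0208 and 0.0263). Of these, the LPS + DEX call of Eif4ebp2 was lost under median-of-ratios scaling (0.85, adjusted p = 0.0537), and the LPS call with limma-voom (1.41, adjusted p = 0.0518) and with the compared groups alone (1.34, adjusted p = 0.0537). Eif3b, the RNA-binding scaffold of eIF3, had 702 and 574 CPM with LPS + DEX and 514 and 603 CPM with LPS, against 341 and 319 CPM in basal cells. Its changes were 0.94 ± 0.14 and 0.75 ± 0.14 (adjusted p = 0.00869 and 0.0258).

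The other mRNAs that rose with LPS were Eif4g2 (0.70 ± 0.14), Eif3l (0.59 ± 0.13) and Eif4b (0.47 ± 0.12). With LPS + DEX they were Eif4g3 (0.77 ± 0.19), Eif3l (0.69 ± 0.13), Eif4b (0.67 ± 0.12), the catalytic eIF2B subunit Eif2b5 (0.64 ± 0.14), Eif3c (0.61 ± 0.13), Eif3d (0.61 ± 0.14) and Eif4enif1, an eIF4E transporter (0.60 ± 0.18). Of these and Eif3b, Eif3b with LPS + DEX was the only 1 to pass under median-of-ratios scaling. These rises were 6 of 49 factors for LPS and 10 of 49 for LPS + DEX, shares near those of all genes.

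Eif1 (ENSMUSG00000035530) was the 1 factor called with less mRNA in both treatments. It had 279 and 306 CPM with LPS + DEX and 319 and 300 CPM with LPS, against 430 and 494 CPM in basal cells, changes of -0.66 ± 0.13 and -0.57 ± 0.13 (adjusted p = 0.0129 and 0.0339). Eif1ax had 53.4 and 80.2 CPM with LPS + DEX, against 118 and 153 CPM in basal cells (-1.03 ± 0.25, adjusted p = 0.0246). Eif2s1 had 115 and 152 CPM with LPS + DEX, against 190 and 228 CPM in basal cells (-0.65 ± 0.19, adjusted p = 0.0437). All treated libraries of these 3 genes lay below both basal ones, although Eif1ax and Eif2s1 were not called with LPS. The calls for Eif1, Eif1ax and Eif2s1 also passed under median-of-ratios scaling. The LPS call of Eif1 and the LPS + DEX call of Eif2s1 were lost with the replicate block and with the compared groups alone. Over the fits without 1 library these 2 changes measured -0.47 to -0.67 and -0.45 to -0.86.

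The mRNA calls did not hold when single libraries were left out. A group left with 1 library is then assumed to vary like the other groups, and the test has fewer samples to call a change. All 7 of LPS against basal were lost without either LPS mRNA library, where Eif4g1 measured 0.86 (without replicate 1, adjusted p = 0.0642) and 0.79 (without replicate 2, adjusted p = 0.18), Eif4ebp2 1.52 and 1.16, Eif3b 0.87 and 0.64, and Eif1 -0.62 and -0.53. All 13 of LPS + DEX against basal were lost without LPS + DEX replicate 1, where Eif4g1 measured 0.96 and Eif3b 0.80 (adjusted p = 0.0711 for both) and Eif1 -0.59 (adjusted p = 0.0834). Without mRNA basal replicate 1, the library with high Krt7, Ddr1 and Ren1, the LPS calls that held were Eif4g1 (0.74), Eif4ebp2 (1.34), Eif3b (0.80) and Eif1 (-0.67). The other 3 were lost: Eif4g2 (0.58, adjusted p = 0.0585), Eif3l (0.54, adjusted p = 0.0806) and Eif4b (0.45, adjusted p = 0.136). For LPS + DEX, Eif3c (0.48, adjusted p = 0.0679) and Eif4enif1 (0.53, adjusted p = 0.133) were lost without that library.

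For LPS + DEX against LPS, limma called 0 of the 49 factors in mRNA, where 2 had an unadjusted p under 0.05, and limma-voom also called 0. Over all 9277 genes the share called was 0%. The treatment check Dusp1 was itself not called in it, with 441 and 483 CPM of mRNA with LPS + DEX, against 41.4 and 54.9 CPM with LPS (3.25 ± 0.47), although these libraries did not overlap. Without mRNA basal replicate 1 Dusp1 passed (adjusted p = 4.75e-08), while still 0 of the 49 factors did. Eif2s2, whose footprints differed between these groups, had 97.6 and 152 CPM of mRNA with LPS + DEX, against 186 and 112 CPM with LPS, so the groups overlapped (-0.25 ± 0.28). Eif3m had 159 and 215 CPM with LPS + DEX, against 192 and 195 CPM with LPS (-0.06 ± 0.17), and Eif6 had 290 and 235 CPM, against 193 and 270 CPM (0.19 ± 0.19). The replicates of a group differed by a median over the 49 factors of 0.17 to 0.25 (log2) in mRNA and 0.11 to 0.15 in footprints.

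**Figure D3:**
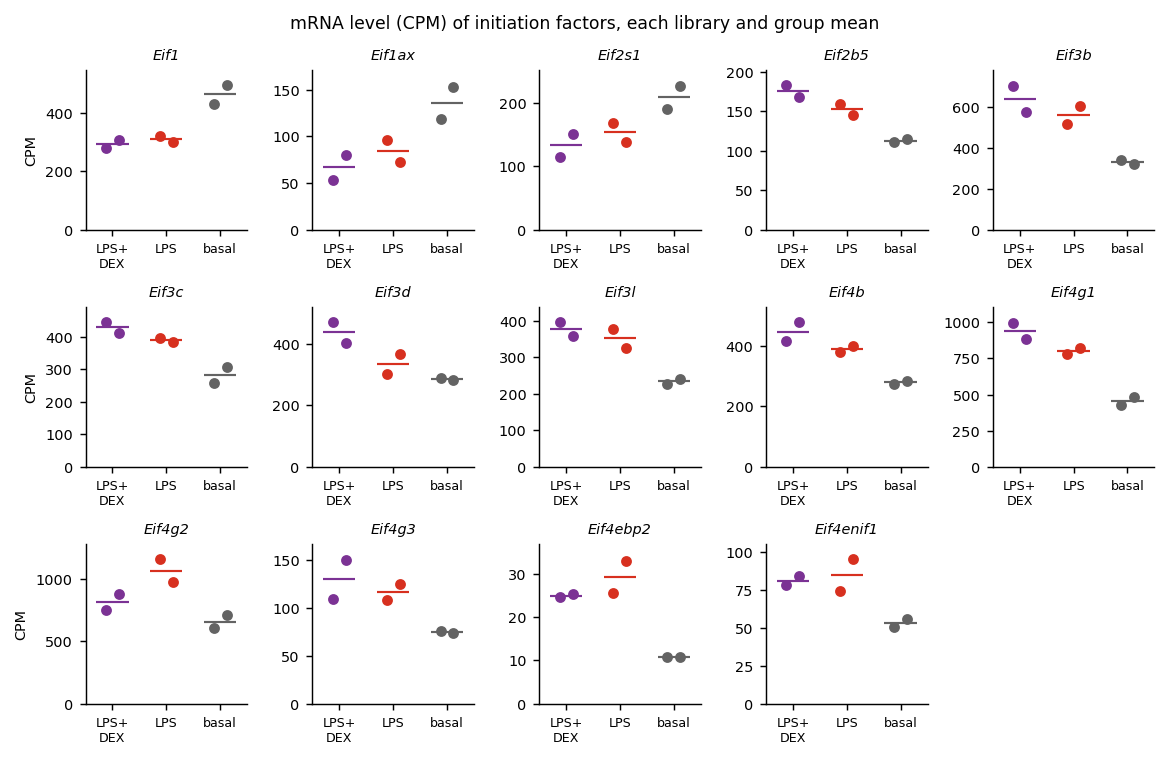
mRNA level in CPM (vertical axis, from 0) of the 14 initiation factors called in at least 1 mRNA comparison, for LPS + DEX, LPS and basal cells. Points are libraries and lines are group means (n = 2). Eif4g1 lies at 784 to 995 CPM in the treated libraries and at 428 and 480 CPM in basal cells, and Eif1 shows the opposite order.

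The TE test asks whether footprints and mRNA of a gene changed by different amounts. With LPS, TE rose for 7 of 49 factors, against 3.08% of all 9412 genes, and fell for 6, against 13.6%. With LPS + DEX against basal it rose for 4, against 2.68%, and fell for 11, against 12.2%. The factors' medians were -0.14 with LPS and -0.02 with LPS + DEX, and those of all genes were -0.34 in both. Median-of-ratios scaling raised the median TE change of all genes by 0.29 with LPS and by 0.33 with LPS + DEX. It turned the split of the factors to 13 higher and 1 lower with LPS and to 6 higher and 2 lower with LPS + DEX, so the balance of directions is a matter of scaling.

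In all 7 factors whose TE rose with LPS, the footprint change was above 0 and the mRNA change below 0, whether or not each passed alone. Eif3j1 rose by 1.35 ± 0.30 with LPS + DEX and by 1.28 ± 0.30 with LPS (adjusted p = 0.0114 and 0.012). Its mRNA was 18.6 and 29.2 CPM with LPS + DEX and 27.8 and 25.5 CPM with LPS, against 39.3 and 43.3 CPM in basal cells, a difference that did not pass in mRNA alone (-0.80 ± 0.26 and -0.61 ± 0.26). Its copy Eif3j2 measured 1.14 ± 0.36 and 1.24 ± 0.36, and Eif1ax measured 1.12 ± 0.30 and 1.18 ± 0.30. All of these passed in both treatments. With LPS + DEX, Eif3j2 was lost without the filter, with the replicate block and with the compared groups alone (adjusted p = 0.0505, 0.0759 and 0.0668), and without mRNA LPS + DEX replicate 1 it measured 0.74.

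Eif1 TE rose by 1.10 ± 0.16 with LPS + DEX (adjusted p = 0.00236) and by 0.69 ± 0.16 with LPS (adjusted p = 0.0134). Eif1 mRNA was lower in both treatments, while its footprints were higher with LPS + DEX and measured 0.11 ± 0.11 with LPS. Eif2s2 (1.18 ± 0.31, adjusted p = 0.0224), Eif1a (1.03 ± 0.30, adjusted p = 0.0347) and Eif5a (0.46 ± 0.13, adjusted p = 0.0285) rose in TE with LPS. With LPS + DEX these 3 measured 0.64 ± 0.31, 0.54 ± 0.30 and 0.03 ± 0.13 and did not pass. Whether LPS + DEX and LPS differed in TE was tested directly: none of the 49 factors passed, against 0.0106% of all genes called higher and 0.0425% called lower. In that test Eif2s2 measured -0.54 ± 0.31 (adjusted p = 0.9), Eif5a -0.43 ± 0.13 (adjusted p = 0.367) and Eif3m 0.74 ± 0.20 (adjusted p = 0.261). limma gave 4 factors an unadjusted p under 0.05 in it, and limma-voom called 0.

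In the factors whose TE fell, the mRNA change was above 0 with the deposited scaling, and in footprints none but Eif4a1 and Eif4a3 passed. Eif4g1 TE fell by 1.12 ± 0.14 with LPS + DEX and by 0.90 ± 0.14 with LPS (adjusted p = 0.0011 and 0.00218). It held in every fit run, including median-of-ratios scaling (-0.79 and -0.60) and the fit without mRNA basal replicate 1 (-1.04 and -0.81). Eif2b5 fell by 1.03 ± 0.19 with LPS + DEX (adjusted p = 0.00474), and by 0.80 ± 0.19 with LPS (adjusted p = 0.0124), of which only the LPS + DEX value passed under median-of-ratios scaling. Its footprints were 109 and 98.7 CPM with LPS + DEX and 101 and 109 CPM with LPS, against 130 and 143 CPM in basal cells. Its mRNA was 183 and 168 CPM with LPS + DEX and 159 and 145 CPM with LPS, against 110 and 114 CPM in basal cells.

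Eif4ebp2 TE fell by 1.32 ± 0.37 with LPS + DEX and by 1.29 ± 0.37 with LPS (adjusted p = 0.0304 and 0.0322). Its footprints were 18.7 and 18.5 CPM with LPS + DEX and 24.1 and 20.7 CPM with LPS, against 25.9 and 17.8 CPM in basal cells. Without mRNA basal replicate 1 these values were -1.32 and -1.29 and did not pass (adjusted p = 0.0537 and 0.0567), and with median-of-ratios scaling they were -1.01 and -1.01. TE of Eif4enif1, Eif3b and Eif3l also fell in both treatments, by 0.63 to 0.96. Eif4a3, Eif3c, Eif3d, Eif4b and Eif4a1 fell with LPS + DEX, by 0.40 to 0.65. None of these 8 genes passed under median-of-ratios scaling. Without mRNA basal replicate 1, Eif3l (-0.59) and Eif4enif1 (-0.75) were lost with LPS, and Eif3c (-0.52), Eif3d (-0.62), Eif4a1 (-0.33), Eif4b (-0.44) and Eif4enif1 (-0.89) with LPS + DEX.

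Few of the TE calls held without each library in turn. With LPS, 2 of 13 calls did so: those of Eif4g1 and Eif3j1. With LPS + DEX 3 of 15 did so, those of Eif1, Eif2b5 and Eif4g1, while Eif3j1 was lost without footprint LPS + DEX replicate 1 (1.31, adjusted p = 0.0517). With LPS, Eif2b5 was lost without footprint basal replicate 2 (-0.73, adjusted p = 0.0544), and Eif1 without mRNA LPS replicate 2 (0.64, adjusted p = 0.0529) or footprint basal replicate 2 (0.61, adjusted p = 0.0569). With LPS, Eif2s2, Eif1a, Eif1ax, Eif3j2 and Eif5a were each lost without several libraries, mRNA LPS replicate 2 among them. Over the fits without 1 library they measured 0.82 to 1.55, 0.80 to 1.27, 0.99 to 1.37, 0.996 to 1.48 and 0.43 to 0.50. Eif1a, Eif3j2 and Eif5a were lost in most of those fits, Eif5a also without mRNA basal replicate 1 (0.46). The LPS calls of Eif1a and Eif3j2 were also lost with the replicate block. With LPS + DEX, Eif1ax (0.83 to 1.41) and Eif3j2 (0.74 to 1.53) were lost without several libraries. Footprint LPS + DEX replicate 1 was among them (1.01 and 1.04).

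**Figure D4:**
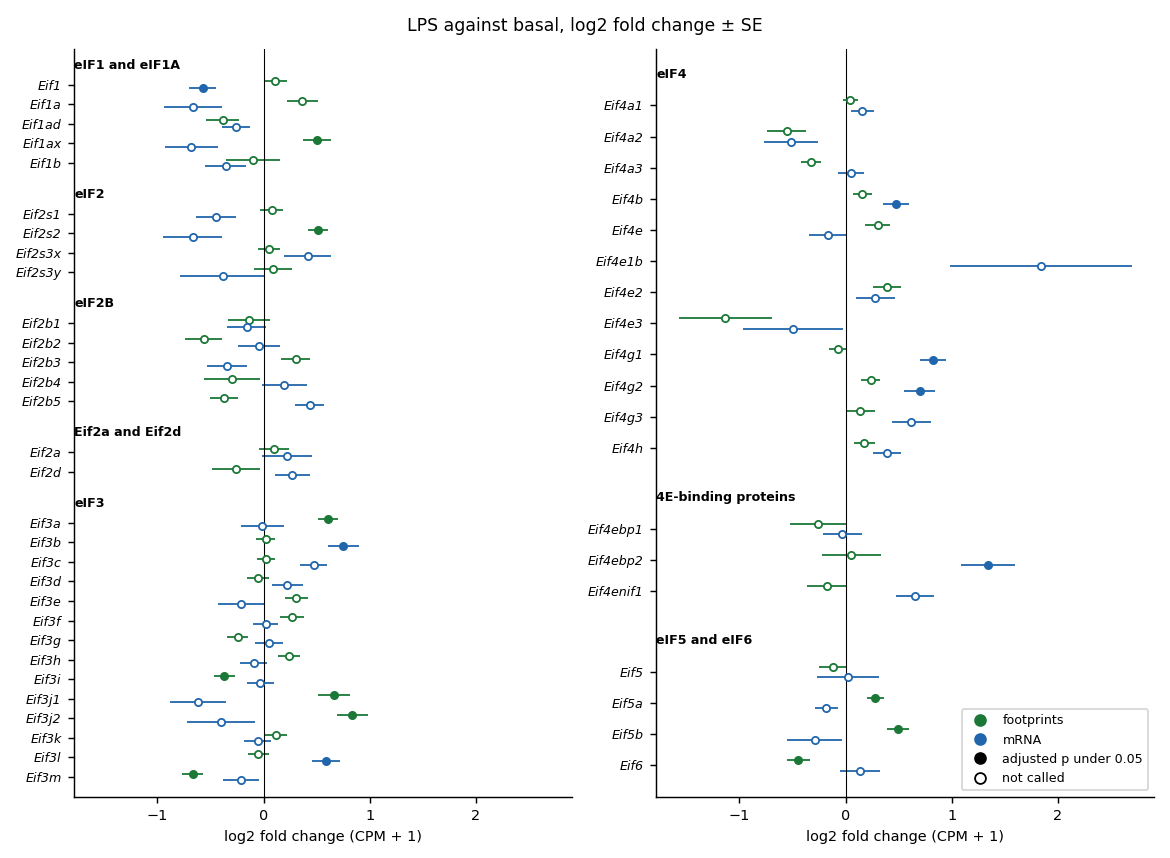
Change of LPS against basal (log2 fold change of CPM + 1, horizontal axis, ± SE) in footprints (green) and mRNA (blue) for the initiation factors, grouped by complex. Filled points passed at an adjusted p under 0.05. For Eif4g1 the mRNA point lies at 0.82 and the footprint point at -0.07, whereas for Eif3a the footprint point lies at 0.60 and the mRNA point at -0.01.

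In basal cells, footprints were set against mRNA within each gene. This ratio reflects reads per transcript and not per coding base, so the share of a transcript that is coding enters it, and that part was not tested. Log2 TE passed the test above 0 for 21 of 49 factors, against 33.4% of all genes, and below 0 for 11, against 17.3%. The median log2 TE was 0.39 for the factors and 0.21 for all genes, and with median-of-ratios scaling it was 0.12 and -0.05, with 15 factors higher and 13 lower. Of the 32 calls, 22 held without any 1 library. The other 10 were Eif1b, Eif2d, Eif2s2, Eif3k, Eif3m, Eif4a2, Eif4e, Eif4e2, Eif4ebp2 and Eif4g3. Of these, Eif2d (-0.62, adjusted p = 0.0626), Eif3m (0.32, adjusted p = 0.146) and Eif4e (0.41, adjusted p = 0.0949), like Eif1b and Eif2s2, were lost without mRNA basal replicate 1.

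All 4 eIF2 genes passed with more footprints than mRNA, as did 33.4% of all genes. Eif2s3x (ENSMUSG00000035150), the X-linked gamma subunit gene, had 308 and 267 CPM of footprints against 60.3 and 59 CPM of mRNA, a log2 TE of 2.24 ± 0.17 (adjusted p = 3.57e-07). This was the highest value among the factors. The Y-linked copy Eif2s3y measured 1.16 ± 0.31, Eif2s1 0.68 ± 0.16 and Eif2s2 0.68 ± 0.22. Eif2s2 was lost without mRNA basal replicate 1 (0.60, adjusted p = 0.0635) or footprint basal replicate 1 (0.72) or 2 (0.65), and it did not pass under median-of-ratios scaling (0.41, adjusted p = 0.142). None of the 5 eIF2B subunits passed, with log2 TE between -0.16 (Eif2b1) and 0.28 (Eif2b5).

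In eIF3, 6 of 14 genes passed above 0 and 3 below, against 33.4% and 17.3% of all genes. Eif3a had 707 and 590 CPM of footprints against 178 and 202 CPM of mRNA, a log2 TE of 1.76 ± 0.16 (adjusted p = 1.81e-06). Eif3f (ENSMUSG00000031029), a subunit with an MPN domain, had 253 and 318 CPM of footprints against 522 and 515 CPM of mRNA, a log2 TE of -0.87 ± 0.12 (adjusted p = 5.13e-05). Eif3c lay at 1.34 ± 0.11 and Eif3l at 0.83 ± 0.12, while Eif3h lay at -0.53 ± 0.11. Both ends of this range passed under median-of-ratios scaling (1.49 for Eif3a and -1.14 for Eif3f).

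In the eIF4 group 7 of 12 passed above 0 and 3 below, against 33.4% and 17.3% of all genes. The helicase pair differed in sign, with Eif4a1 at 0.91 ± 0.08 and Eif4a2 at -0.76 ± 0.23, where Eif4a2 was lost without footprint basal replicate 2 (-0.63) or mRNA basal replicate 2 (-0.65). So did the scaffolds, with Eif4g1 at 1.01 ± 0.10 and Eif4g2 at -0.48 ± 0.12, and the 4E-binding proteins, with Eif4ebp2 at 0.93 ± 0.26 and Eif4ebp1 at -1.24 ± 0.22. Eif4ebp1 had 23.7 and 30.3 CPM of footprints against 65.1 and 63.9 CPM of mRNA. Eif4ebp2 was lost without footprint basal replicate 1 (0.66, adjusted p = 0.105). The difference between the genes of a pair was not tested.

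Eif1 had 208 and 186 CPM of footprints against 430 and 494 CPM of mRNA, a log2 TE of -1.23 ± 0.11 (adjusted p = 1.94e-06). Eif1ad, a relative of eIF1A, was below 1 as well, with 75.6 and 79.6 CPM of footprints against 151 and 161 CPM of mRNA. Eif1b measured -0.81 ± 0.22 and was lost without mRNA basal replicate 1 (-0.68, adjusted p = 0.066) or footprint basal replicate 2 (-0.70). Eif1a stood at 1.30 ± 0.21. Eif1ax had 144 and 125 CPM of footprints against 118 and 153 CPM of mRNA, so that its libraries overlapped. Eif5b was high at 1.23 ± 0.20, and Eif5, Eif5a and Eif6 did not pass.

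**Figure D5:**
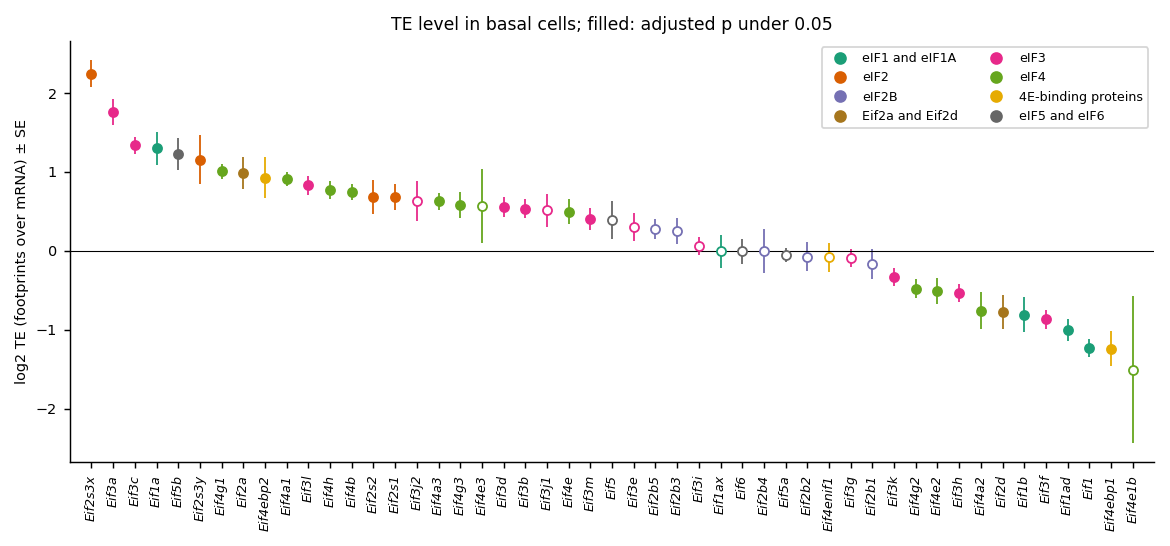
Log2 TE (footprints over mRNA, ± SE, vertical axis) of the 49 initiation factors in basal cells, ordered from high to low and coloured by complex. Filled points passed at an adjusted p under 0.05. Eif2s3x (2.24) lies at the high end, the eIF2 genes all lie above 0, and Eif4ebp1 (-1.24) and Eif1 (-1.23) are the lowest called. Eif4e1b, the lowest point, had 0.763 and 0.658 CPM of footprints (1 read a library) and is not called.

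A terminal oligopyrimidine (TOP) start, a C at the cap followed by a run of pyrimidines, puts the translation of an mRNA under mTOR control through Larp1. Eif3e, Eif3f and Eif3h are known TOP mRNAs among the factors. With the deposited scaling none of the 3 was called in any change of mRNA, footprints or TE, while with median-of-ratios scaling Eif3f passed in footprints for LPS + DEX against basal. Their footprints measured 0.31 ± 0.11, 0.27 ± 0.11 and 0.24 ± 0.10 for LPS against basal (adjusted p = 0.0973, 0.173 and 0.178). For LPS + DEX against LPS they measured -0.21 ± 0.11, 0.11 ± 0.11 and -0.10 ± 0.10.

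To show what such a start looks like beside others, the bases around the annotated gene start are printed for 6 factors that carry the results: the lowest eIF3 and highest eIF2 gene in basal TE, Eif1 and Eif4g1, whose TE moved in opposite directions, and Eif2s2 and Eif3m, whose footprints did. Each line gives 15 bases before and 15 from the start, 5′ to 3′ on the gene's strand, from RefSeq on build GRCm38.p6. Capitals mark a C at the start followed by at least 4 pyrimidines.
Eif3f, chr7:108934400-108934429, + strand: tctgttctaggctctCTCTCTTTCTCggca
Eif2s3x, chrX:94212637-94212666, - strand: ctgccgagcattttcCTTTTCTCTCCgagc
Eif1, chr11:100319934-100319963, + strand: gcgctggcgtcacaggggcggctatataag
Eif4g1, chr16:20672712-20672741, + strand: cgccagcgcagctccgccctctgcgccggt
Eif2s2, chr2:154892892-154892921, - strand: cacgtaaggttggctttactgtacgcctgc
Eif3m, chr2:105017013-105017042, - strand: ttttccggtcggcgtgtttctggatcggag

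Of the 38 factors with a start in the RefSeq table, 2 had such a tract at an annotated start, Eif3f and Eif2s3x (5.26%), against 813 of 27025 genes (3.01%). Eif3e and Eif3h have no start in that table. Eif3f and Eif2s3x carry tracts of 11 pyrimidines, and they stand towards opposite ends of basal TE, at -0.87 and 2.24. A match is a description of the annotated start, which may differ from the start used in these cells.

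Genes that regulate initiation were taken as a second list: kinases and phosphatase subunits acting on eIF2, mTOR complex 1 with its upstream regulators, the eIF4E kinases Mknk1 and Mknk2, poly(A)-binding proteins and helper factors. Of 36 symbols, 34 were listed, and of the others Gcn1 is the newer symbol of the listed Gcn1l1 and Rps6kb2 was not analysed here. In footprints 1 of 34 rose and 1 fell with LPS, against 3.3% and 4.32% of all genes. The median change was -0.09, against -0.07 for all genes, and both calls held without any 1 library. Ppp1r15a, which directs dephosphorylation of eIF2 alpha, had 32.6 and 18.2 CPM of footprints with LPS, against 3.05 and 4.6 CPM in basal cells (2.41 ± 0.39, adjusted p = 0.0017). In these basal libraries 3 reads amount to 2.29 and 1.97 CPM. The basal values are thus near the floor, and the size of Ppp1r15a footprint changes against basal is uncertain. Mknk2 had 21.7 and 14.6 CPM with LPS, against 43.5 and 46 CPM in basal cells (-1.28 ± 0.25, adjusted p = 0.00729). Its mRNA went the other way, with 88.1 and 78.6 CPM with LPS, against 31.2 and 40.1 CPM in basal cells (1.21 ± 0.19), and its TE fell by 2.49 ± 0.31 (adjusted p = 0.00131).

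In mRNA, 11 of 33 regulators rose and 3 fell with LPS + DEX against basal, when 18.5% of all genes rose and 4.23% fell. With LPS 9 rose and 1 fell, when 9.03% of all genes rose and 1.68% fell. The regulators' median change was 0.21 with LPS + DEX and 0.36 with LPS, and that of all genes was 0.28 and 0.26. Mtor, its partner Rptor, the TOP-binding protein Larp1, the mTOR inhibitor Tsc2 and Gcn1l1, an activator of the kinase Eif2ak4, were among those whose mRNA rose in both. None of these genes was called in footprints against basal in either treatment. The TE of each was called lower with LPS, and of each but Rptor with LPS + DEX. Under median-of-ratios scaling their mRNA passed with LPS + DEX but not with LPS. Under that scaling only Gcn1l1 with LPS and Mtor with LPS + DEX stayed lower in TE. Denr, which recycles ribosomal subunits, fell by 1.28 ± 0.23 with LPS + DEX and by 1.07 ± 0.23 with LPS. In TE, 3 of 34 regulators rose and 8 fell with LPS + DEX, when 2.68% of all genes rose and 12.2% fell. With LPS none rose and 9 fell, when 3.08% of all genes rose and 13.6% fell. The regulators' median was -0.21 with LPS + DEX and -0.48 with LPS, and that of all genes was -0.34 in both. With median-of-ratios scaling these became 7 higher and 5 lower in mRNA and 4 higher and 4 lower in TE for LPS + DEX, and 2 higher and 2 lower in mRNA and 3 higher and 3 lower in TE for LPS. Ppp1r15a and Mknk2 mRNA stayed higher and Denr mRNA lower under that scaling in both treatments. Of these mRNA calls, Ppp1r15a with LPS held without any 1 library (3.34 ± 0.23 with all). With LPS, Mknk2 was lost without LPS replicate 1 (1.13) or 2 (1.29) and Denr likewise (-1.22 and -0.92). With LPS + DEX, all 14 were lost without LPS + DEX replicate 1, where Ppp1r15a measured 3.86 (adjusted p = 0.0561).

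For LPS + DEX against LPS, Gcn1l1 footprints were the only regulator value called (0.45 ± 0.12, adjusted p = 0.0444), and it was lost with median-of-ratios scaling (adjusted p = 0.0548) and without LPS replicate 1 (0.33) or 2 (0.57) or LPS + DEX replicate 1 (0.42) or 2 (0.47). Set against basal, footprints with LPS + DEX were higher for Ppp1r15a (1.83 ± 0.39) and the eIF2 kinase gene Eif2ak3 (0.99 ± 0.24) and lower for Ppp1r15b (-0.60 ± 0.16, adjusted p = 0.0497), which did not pass under median-of-ratios scaling (adjusted p = 0.0685). Eif2ak3 had 49.6 and 39.8 CPM with LPS + DEX, against 22.9 and 21 CPM in basal cells. Without LPS + DEX replicate 1 or 2 these 3 calls were lost, at 1.91 and 1.76 for Ppp1r15a, 0.83 and 1.14 for Eif2ak3 and -0.50 and -0.70 for Ppp1r15b. The eIF2 alpha gene Eif2s1 itself was not called in footprints in any of these comparisons.

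Some members were too scarce for a statement. Eif4e1b had 17.4 and 21.7 CPM of mRNA with LPS + DEX and 14.8 and 18 CPM with LPS, against 0.678 and 13 CPM in basal cells, where the low value is basal replicate 1. Its change did not pass, and no fold is given. Eif4e3, a further cap-binding relative, had 3.62 to 17.6 CPM of footprints, and its value for LPS + DEX against LPS (1.24 ± 0.44, adjusted p = 0.114) rests on 3.62 and 9.73 CPM with LPS. At 3 reads a library the level was 1.19 to 3.65 CPM.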

How the data were processed

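The deposited tables give 1 value per Ensembl gene and library. Read from the values, this is CPM + 1, made by the authors before deposit: the lowest value is exactly 1, and value minus 1 is a whole multiple of 1 step (within 0.1) for 99.9896% to 100% of a library's values, and that step gives its depth. Listed genes hold 97.4% to 98.9% of a library's reads, and every gene reaches 16.0217 in at least 1 library, so scarce genes are not among them. For the aligner, counter, strand setting and genome build the answer is: not given in the sources used here. Symbols came from a gene name table (9521 of 9621 IDs matched).

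log2(CPM + 1) was fitted with limma 3.58.1 (limma-trend, R 4.3.3), with treatment group as the only term. The 6 mRNA libraries, the 6 footprint libraries and all 12 (TE, as an interaction) had a fit each. Genes needed 10 reads at the median depth in 2 libraries and 15 reads in all, and p-values were adjusted over all genes tested. The series describes replicates as independent and biological.

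Values by library are given for factors called in a comparison, at most 10 per comparison by size of change, and for Eif4ebp1, Eif4ebp2, Eif4e, Eif4a1, Eif4g1, Eif4g2, Eif2s1, Eif1, Eif5 and Eif6 whatever their values. Some further factors are shown, chosen after their values were seen. The members and gene lists were chosen with earlier results of these data known. Alternatives were log2(CPM + 2), no filter, median-of-ratios scaling, limma-voom on reads recovered from the CPM steps (whole within 0.1), a replicate block, only the compared groups, and leaving out each library. Gene starts are RefSeq's.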

Additional observations from a re-analysis of the deposited data

How the results depend on the processing

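Counts of initiation factors called stayed within 1.5 times the reported ones except as follows. For mRNA of LPS against basal, 7 became 3 with median-of-ratios scaling, 4 with limma-voom, 2 with the replicate block and 3 with the compared groups alone. In footprints, the compared groups alone gave 5 in place of 10 for LPS against basal and 2 in place of 4 for LPS + DEX against basal, where the block also gave 2. For TE of LPS + DEX against basal, 15 became 8 with median-of-ratios scaling, which also turned splits: 2 higher and 11 lower in place of 10 and 3 (mRNA, LPS + DEX against basal), and 13 and 1 in place of 7 and 6 (TE, LPS against basal). Leaving out 1 library gave 1 to 12 (footprints, LPS + DEX against LPS), 0 to 4 (footprints, LPS + DEX against basal), 4 to 9 (footprints, LPS against basal), 0 to 14 (mRNA, LPS + DEX against basal), 0 to 8 (mRNA, LPS against basal), 3 to 15 (TE, LPS + DEX against basal), 4 to 15 (TE, LPS against basal), 25 to 35 (basal TE) and 0 throughout for mRNA and TE of LPS + DEX against LPS. Each fit without a library has fewer samples, and the cause of the changed counts was not tested. Of the single calls under all alternatives, 1252 held, 332 lost significance and 0 changed sign. Same-numbered replicates deviated together by r = -0.24 to 0.17 over 5536 genes, so the numbers were not taken to pair samples, and the block kept 83 of 102 calls. With 2 libraries a group and 821946 to 2529667 reads each, small changes of scarce factors could not be resolved.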
